A study of Mus musculus with 4 samples.

Results

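The genes described here encode the heat shock proteins and their partners, the proteins that fold other proteins or keep them from clumping. They were chosen by gene symbol alone, from the platform's probe annotation: Hsp followed by a, b, d, e, h or a digit, the 3 classes of Dnaj genes, the Cct2 to Cct8 subunit genes and Bag1 to Bag6. This gave 59 genes of the 8251 genes that the array names singly, measured by 87 of its 12488 probe sets, where a probe set is a group of short probes that report on 1 transcript. The probe set with the highest mean signal over the 4 arrays stood for its gene. In 53 of the 59 it was bright enough to test, and 6 genes were too dim.

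The tissue was visual cortex from wild-type mice of the C57Bl6 strain. According to the labels, 5 mice were reared in darkness from birth until postnatal day 42, lost an eye that day, spent 4 days in a normal light-dark environment and were killed on postnatal day 46. The deprived group is the cortex contralateral to the removed eye (2 arrays) and the non-deprived group the cortex ipsilateral to it (2 arrays). Both groups therefore share the dark rearing, the operated animals and the first days of light, and neither is a normally reared or unoperated control. Tissue was pooled within a side, no source used here says how the 5 mice were divided over the arrays, and a p-value measures only the spread between these 4 arrays.

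Chaperones of the Hsp70 family hold and release unfolded stretches of protein in a cycle driven by ATP. J-domain proteins, the Hsp40 or Dnaj family, bring clients to Hsp70 and start ATP hydrolysis, and nucleotide exchange factors such as the BAG proteins and the Hsp110 family release them. Hsp90 acts later on signalling proteins, the ring-shaped chaperonins TRiC (cytosol) and Hsp60 with Hsp10 (mitochondria) fold proteins inside a cavity, and small heat shock proteins hold unfolded proteins without using ATP. The transcription factor Hsf1 switches many of these genes on through heat shock elements in their promoters, and the chaperones of the endoplasmic reticulum answer to a separate element. In neurons, J-domain proteins also serve the synapse, where Dnajc5 (cysteine string protein) sits on synaptic vesicles.

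Promoter sequences are shown first because they mark which promoter windows hold an exact match to an element of the 2 stress responses. Imperfect elements and elements outside the windows were not searched, so a gene without a match is not shown to lack the element. RefSeq windows of build GRCm38.p6, from 250 bases before to 50 bases after a transcript start, were found for 51 of the 59 genes, as 65 windows. A heat shock element of 2 units was searched as GAANNTTC or TTCNNGAA, and one of 3 units as GAANNTTCNNGAA or its reverse complement TTCNNGAANNTTC, which contains both forms of 2 units. The 2-unit element was in 26.2% of the chaperone windows and 15.1% of all 32851 windows, and the 3-unit element in 9.23% and 0.603%. The endoplasmic reticulum stress element, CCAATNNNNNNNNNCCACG on either strand, was in 4.62% and 0.119%. Windows of 1 gene overlap, so these shares describe letters in windows and not sites in use. In the sequences, read 5′ to 3′ on the strand of the gene, capitals mark the matched elements.
Hspe1, chr1:55087898-55088197, plus strand: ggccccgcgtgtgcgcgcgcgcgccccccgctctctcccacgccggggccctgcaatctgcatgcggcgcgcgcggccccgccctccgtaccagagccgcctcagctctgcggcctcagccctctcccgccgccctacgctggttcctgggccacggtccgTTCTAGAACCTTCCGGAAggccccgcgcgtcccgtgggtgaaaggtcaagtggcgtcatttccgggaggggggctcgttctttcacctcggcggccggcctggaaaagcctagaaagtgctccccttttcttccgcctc
Hsph1, chr5:149636266-149636325, minus strand: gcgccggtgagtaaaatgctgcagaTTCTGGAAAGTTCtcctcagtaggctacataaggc
Hspa1a, chr17:34972238-34972275, minus strand: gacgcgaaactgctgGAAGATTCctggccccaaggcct
Hspa1b, chr17:34959320-34959357, minus strand: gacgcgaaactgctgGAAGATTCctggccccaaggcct
Dnaja1, chr4:40722319-40722376, plus strand: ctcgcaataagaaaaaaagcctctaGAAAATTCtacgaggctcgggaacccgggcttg
Hspa5, chr2:34772005-34772063, plus strand: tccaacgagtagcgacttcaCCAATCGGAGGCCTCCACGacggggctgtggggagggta
Hsp90b1, chr10:86705513-86705676, minus strand: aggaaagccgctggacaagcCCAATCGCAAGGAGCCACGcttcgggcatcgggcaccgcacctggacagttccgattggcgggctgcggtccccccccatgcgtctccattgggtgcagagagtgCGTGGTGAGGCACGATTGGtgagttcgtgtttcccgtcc
Dnajc3, chr14:118937807-118937865, plus strand: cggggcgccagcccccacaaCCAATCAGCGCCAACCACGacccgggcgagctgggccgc

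The Hspe1 window shares 285 bases with a window of Hspd1, which is transcribed the other way, so the heat shock units printed in capitals lie in the window of each gene. The windows of Hspa1a and Hspa1b, near-identical genes for the inducible Hsp70, differ at 4 positions, and the stretch shown is the same in both.

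The comparison set cortex driven mainly by the removed eye beside cortex driven mainly by the remaining eye, in animals whose first light came a few days before. No chaperone gene passed the threshold. At an adjusted p under 0.05 in limma the count was 0 of 53 tested genes, against 0.0885% of all 5649 tested genes, and it was also 0 in limma fits with the replicate number as a block or without a mean-variance trend. At an unadjusted p under 0.05, 5 chaperone genes were lower with deprivation and 0 were higher, that is 9.43% and 0%, beside 3.19% lower and 1.73% higher among all tested genes. These 5 were Dnajb5, Dnajc5, Bag2, Hspa4l and Bag6. By symbol they span the Hsp40, BAG and Hsp70 families, although Hspa4l is an exchange factor of the Hsp110 type. Dnajb5 had a deprived mean of 125.8, below the filter of 142.9 on dim probe sets. It entered the test through its non-deprived arrays (mean 641).

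The other 48 tested genes ran from -0.52 for Cct3 to 0.49 for Dnajc3 on the log2 scale, with 34 above 0 and 14 below, and their adjusted p was 0.91 or above in limma. Over all 53 tested genes the median log2 fold change, deprived minus non-deprived, was 0.05, beside 0.01 over all tested genes, while the mean had the opposite sign, -0.04. The sign was positive in 34 genes and negative in 19, so that 64.2% were above 0, beside 50.8% of all tested genes. Hspa1b and Dnajc17, both above 0, had non-deprived means below the filter and entered the test through their deprived arrays. Dnajb5, below 0, entered through its non-deprived arrays. Without any 1 of the 4 arrays, between 24 and 31 genes were above 0. For 36 genes the value was within 0.25 of 0, which is 67.9% beside 62.5% of all tested genes. The 2 groups of arrays did not overlap for 9 lower and 8 higher chaperone genes, 17% and 15.1%, beside 16.4% and 15.4% of all tested genes. All fold changes were taken after adding 60.6 to each signal, so that on this log2(signal + 60.6) scale the change of dim genes is understated. The 95% interval of the difference lay within a 2-fold change either way for 37 of the 53 genes and within a 1.5-fold change for 18, so that smaller shifts could not be seen with 2 arrays a group.

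**Figure D1:**
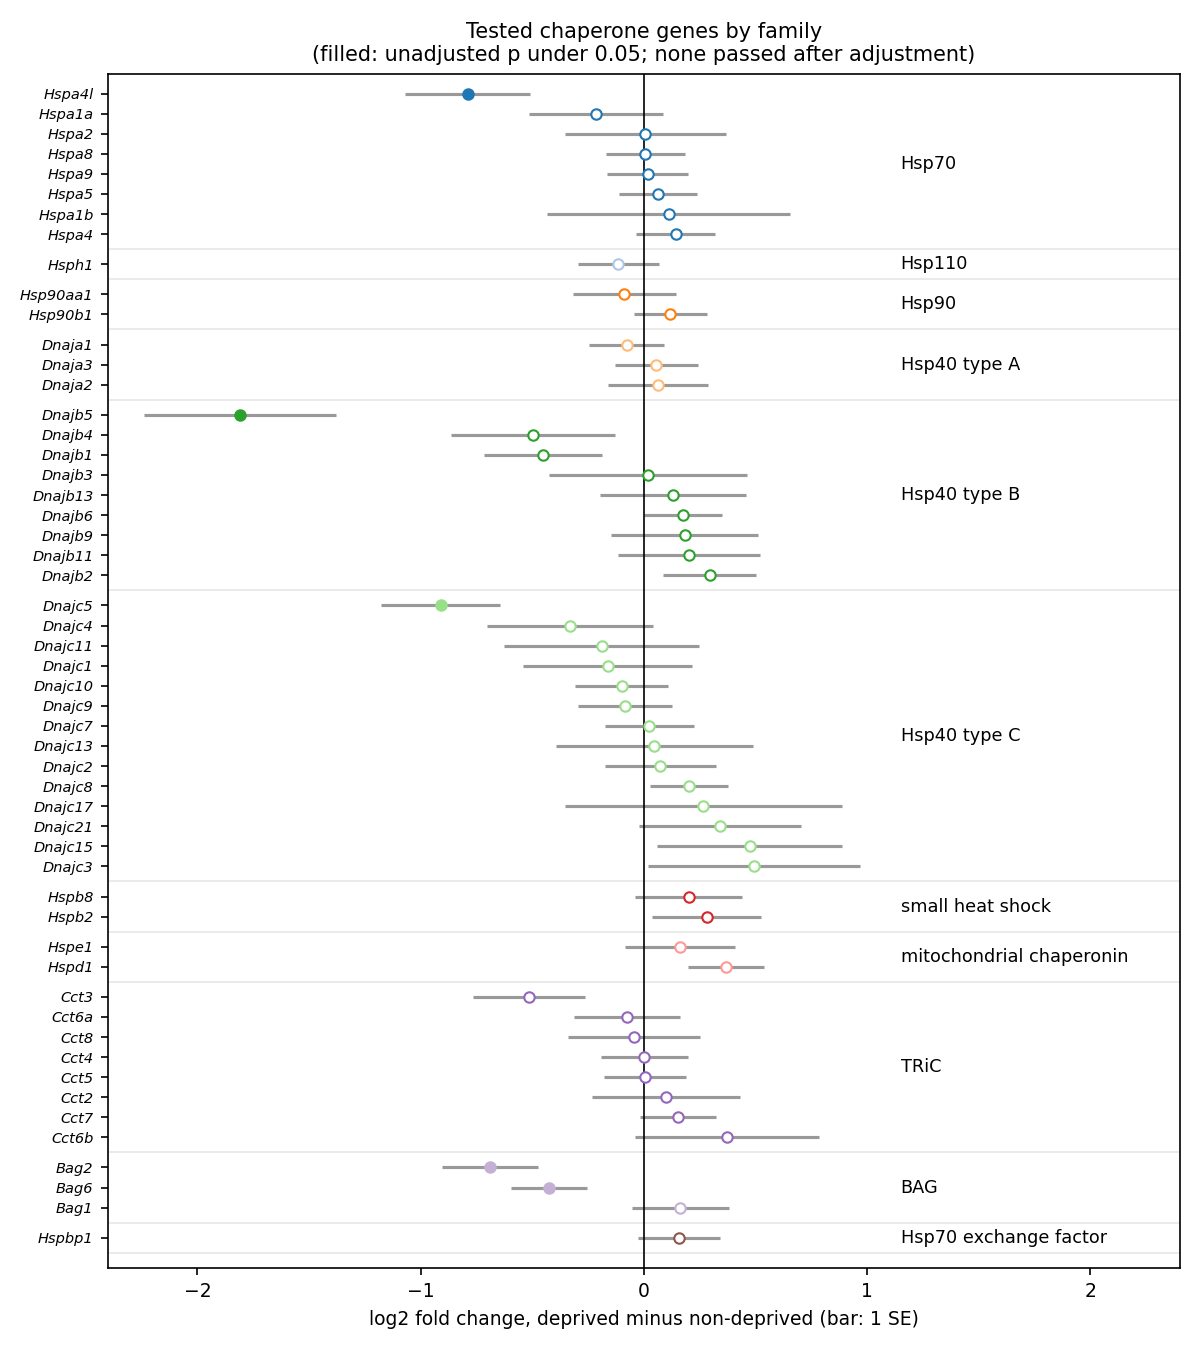
Log2 fold change (deprived minus non-deprived, x axis) of the 53 tested chaperone genes grouped by family, each point a gene and each bar 1 standard error from limma's fit over 2 arrays a group. Filled points mark the 5 genes at an unadjusted p under 0.05, from Dnajb5 at -1.81 to Bag6 at -0.42. The deprived mean of Dnajb5 was below the filter on dim probe sets. The other 48 genes lie between -0.52 and 0.49.

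Dnajb5, a J-domain partner of Hsp70, showed the largest difference of the 53 tested chaperone genes. Its signal was 156.2 on deprived array 1 and 95.3 on deprived array 2, against 363.5 and 919.2 on non-deprived arrays 1 and 2. Both deprived arrays were below both non-deprived arrays, and the non-deprived arrays lay far apart from each other. The deprived mean was below the filter of 142.9 on dim probe sets, so that the gene entered the test through its non-deprived arrays. The means were 125.8 ± 43.1 and 641 ± 393 (SD, n = 2 per group), and the log2 fold change was -1.81 ± 0.43 (SE), 3.51-fold lower, with an adjusted p of 0.27 in limma. Of the 53 it alone differed at least 1.5-fold, always downwards, whichever deprived array was set against whichever non-deprived array (4 pairs), 1.89% beside 1.24% lower and 0.266% higher of all tested genes. The size rested on non-deprived array 2: without it the log2 fold change was -1.21 ± 0.77 and the adjusted p 1.0. It passed without deprived array 1 (adjusted p = 0.0088) and without non-deprived array 1 (0.016), in fits that assume a lone array varies like the other group. Only 1 probe set named Dnajb5, so no other could be set beside it.

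The first RefSeq promoter window of Dnajb5, printed because this gene stood furthest from 0, holds neither stress element. After the values were seen, the windows were searched for TGACG (on either strand), the core of the cAMP response element, which is in 44.6% of the chaperone windows and 20.8% of all windows. It is in all 3 windows of Dnajb5, of which overlapping ones share a site, in those of Bag2 and Hspa4l and not in that of Bag6. Dnajc5 has no window. By gene it is in 25 of the 51 chaperone genes with a window. In all it is in windows of 22 tested chaperone genes, whose median log2 fold change was 0.05.
Dnajb5, chr4:42949617-42949916, plus strand, TGACG in capitals: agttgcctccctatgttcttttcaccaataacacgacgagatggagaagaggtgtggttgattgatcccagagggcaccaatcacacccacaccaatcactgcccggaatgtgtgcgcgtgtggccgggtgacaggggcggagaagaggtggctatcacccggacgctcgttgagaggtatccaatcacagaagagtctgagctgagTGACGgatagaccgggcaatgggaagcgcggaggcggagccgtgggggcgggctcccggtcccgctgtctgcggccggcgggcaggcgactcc

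Dnajc5, which encodes the cysteine string protein of synaptic vesicles, had signals of 549 and 322 on deprived arrays 1 and 2, against of 899 and 799 on the non-deprived arrays. The groups did not overlap. The log2 fold change was -0.91 ± 0.27 (SE), 1.88-fold lower, with an adjusted p of 0.48 in limma. Without deprived array 1 it was -1.25 with an adjusted p of 0.016, and without deprived array 2 it was -0.57. Hspa4l, a nucleotide exchange factor of the Hsp110 type that carries an Hspa symbol, had 479.6 and 441 on the deprived arrays and 617.5 and 1135 on the non-deprived arrays. Here too non-deprived array 2 stood far above the rest, and without it the log2 fold change moved from -0.79 ± 0.28 to -0.38 ± 0.40 (adjusted p = 0.67 and 1.0 in limma).

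**Figure D2:**
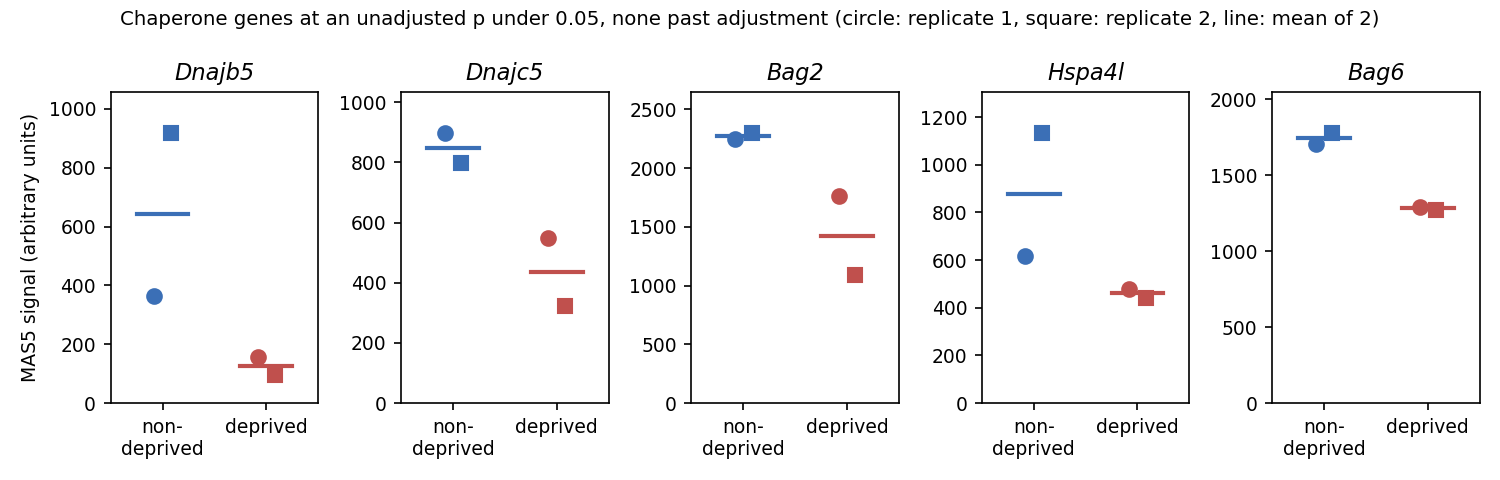
MAS5 signal in arbitrary units (y axis, from 0, with its own scale for each gene) of the 5 chaperone genes at an unadjusted p under 0.05, in non-deprived and deprived cortex. Circles are replicate 1, squares replicate 2 and lines the mean of 2 arrays. The deprived mean of Dnajb5 was below the filter on dim probe sets. Non-deprived replicate 2 is far above replicate 1 for Dnajb5 (919.2 and 363.5) and Hspa4l (1135 and 617.5), while the 2 arrays of each group lie close together for Bag6.

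The BAG family was the family with the lowest median, -0.42 over its 3 tested genes, and the value was -0.13 when the dim Bag3 was also counted. Bag2 inhibits the ubiquitin ligase Chip, and Bag6 guards newly made membrane proteins in the cytosol. Bag6 had 1293 and 1275 on the deprived arrays and 1706 and 1781 on the non-deprived arrays. Its groups were well apart, with little spread within either, and the log2 fold change was -0.42 ± 0.17 (SE, adjusted p = 0.83 in limma). All 3 further Bag6 probe sets were also lower, at -0.95 ± 0.23, -0.26 ± 0.21 and -0.33 ± 0.46, and the first of these had an unadjusted p of 0.0014 and an adjusted p of 0.27, or 0.047 with the replicate number as a block. It was the 1 chaperone probe set, of 72 tested, that passed in the blocked fit, which had 1 residual degree of freedom. Over all 7458 tested probe sets 40 passed in the blocked fit, beside 8 in the main one. Bag2 had 1763 and 1090 on the deprived arrays and 2246 and 2303 on the non-deprived arrays, a log2 fold change of -0.69 ± 0.22 (adjusted p = 0.54). Deprived array 2 was the lowest of the 4, and without deprived array 1 the value was -1.02 with an adjusted p of 0.0083. Of the further Bag2 probe sets the brighter gave -0.66 ± 0.30 and the dimmer, near the filter, 0.06 ± 0.50. Bag1, the exchange factor that binds Hsp70 and the proteasome, gave 0.16 ± 0.22. Bag3, the stress-induced exchange factor of selective autophagy, was too dim to test, with signals from 44.7 to 152.5.

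The main Hsp70 proteins differed little. Hspa8, the constitutive cytosolic Hsp70, had 4371 and 5155 on deprived arrays 1 and 2, against 5117 and 4363 on the non-deprived arrays. The ranges coincide, and the log2 fold change was 0.01 with a 95% interval from -0.38 to 0.40. Hspa5 (BiP, the Hsp70 of the endoplasmic reticulum) gave 0.06 ± 0.17 and Hspa9 (mortalin, the mitochondrial Hsp70) 0.02 ± 0.18 (SE). Hspa1a, the heat-inducible Hsp70, had 377.2 and 334.8 on the deprived arrays and 343.4 and 515.2 on the non-deprived arrays, and gave -0.21 ± 0.30. Its near-identical copy Hspa1b gave 0.11 ± 0.54, and the probes of these copies may read each other's transcript. Hspa1b had a non-deprived mean of 141.5, below the filter on dim probe sets, and entered the test through its deprived arrays (mean 165). Hspa4, an Hsp110-type exchange factor, gave 0.14 ± 0.18 at its brightest probe set, while a dim further one gave 1.33 ± 0.63 and another 2 gave 0.30 and -0.04. The dim one had a non-deprived mean of 53.4, below the filter on dim probe sets. It entered the test through its deprived arrays (mean 232.9). Of the 8 tested genes of the family 6 were above 0 and 2 below, with a median of 0.01. Hspa14 and Hspa1l were too dim to test.

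Other stress-inducible chaperones and their partners did not pass either. Dnajb1, a heat-inducible J-domain protein of the cytosol, had 480 and 826 on deprived arrays 1 and 2, against 781 and 1006 on the non-deprived arrays, a log2 fold change of -0.45 ± 0.26 (SE, adjusted p = 0.98 in limma). Hsph1 (Hsp110) had 3325 and 4375 on the deprived arrays and 4058 and 4218 on the non-deprived arrays, and Hsp90aa1, the inducible cytosolic Hsp90, 9403 and 14294 against 11965 and 12690. For both, the deprived arrays held the lowest and the highest value. The differences of -0.12 ± 0.18 and -0.09 ± 0.23 were smaller than the spread between the deprived arrays. The non-deprived arrays lay closer together. Dnaja1, the main J-domain partner of Hsp70 in the cytosol, gave -0.08 ± 0.17 and was also lowest on deprived array 1. All 4 of these genes were lowest on deprived array 1 and were picked out for it after their values were seen, while Hspa1a and Dnajb4 were lowest on deprived array 2. Of all 53 tested chaperone genes, 24.5% had their lowest value on that array, beside 29.4% of all tested genes.

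Of the Hsp90 family 2 genes were measured. Hsp90b1 (Grp94), the Hsp90 of the endoplasmic reticulum, had 2604 and 2568 on the deprived arrays and 2458 and 2299 on the non-deprived arrays. The deprived arrays were both higher, by a small step, and the log2 fold change was 0.12 with a 95% interval from -0.24 to 0.47. The chaperones with the endoplasmic reticulum stress element in their window, Hspa5, Hsp90b1 and Dnajc3, were all above 0, at 0.06, 0.12 and 0.49. Dnajc3, a J-domain partner of BiP that also restrains a stress kinase, owed its value to deprived array 1, with 474 there against 157 on deprived array 2 and 169 and 195 on the non-deprived arrays. Its further probe sets gave -0.04 and -0.52. The second of these had a deprived mean of 109.4, below the filter on dim probe sets. It entered the test through its non-deprived arrays (mean 179.1). Dnajb11 and Dnajb9, other J-domain proteins of the endoplasmic reticulum, gave 0.20 ± 0.32 and 0.18 ± 0.33 (SE).

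**Figure D3:**
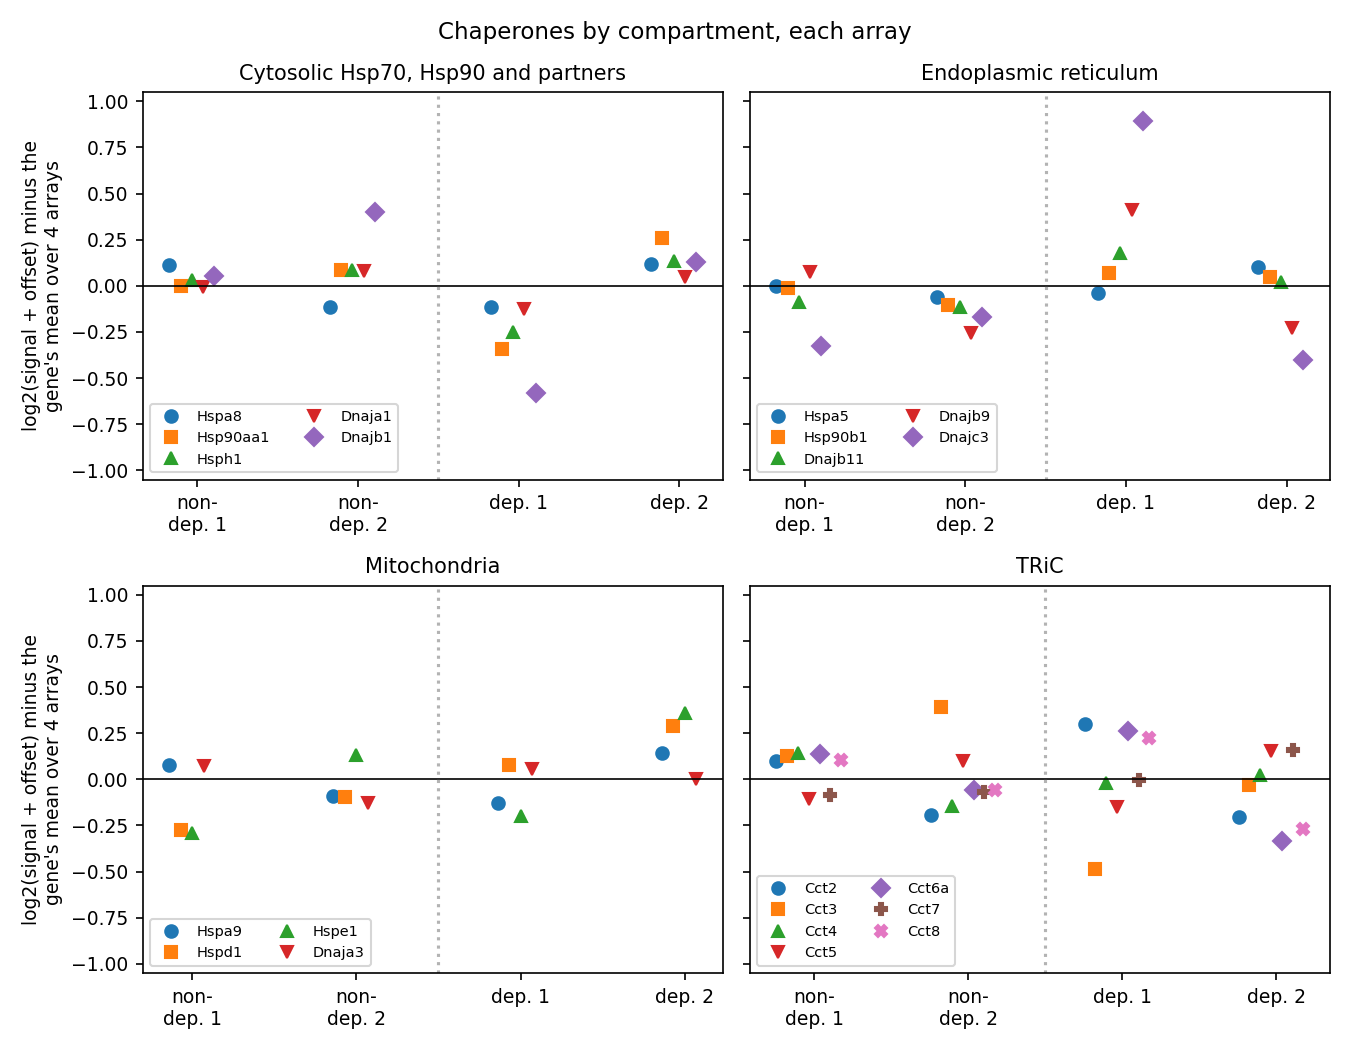
Log2(signal + 60.6) of single chaperone genes on each array, minus the gene's own mean over the 4 arrays (y axis), in 4 panels for cytosolic Hsp70 and Hsp90 with partners, the endoplasmic reticulum, the mitochondria and TRiC. Hsp90aa1, Hsph1, Dnaja1 and Dnajb1 lie lowest on deprived array 1, Dnajc3 lies highest there, and all points of the other genes drawn lie within 0.5 of 0. Cct6b, a testis form, is not drawn.

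Among the J-domain proteins, the largest group, 26 of 27 genes were tested, 16 above 0 and 10 below, with a median of 0.05. The medians were 0.06 for type A (3 genes), 0.13 for type B (9 genes) and 0.04 for type C (14 genes). The type C median was below 0 without any 1 of the 4 arrays (-0.15 to -0.019), and the type A median was below 0 in 3 of these 4 fits (-0.15 at the lowest). The type B median of 0.13 turned to -0.12 when all probe sets of a gene were averaged, and to -0.10 and -0.07 without deprived array 1 and non-deprived array 2. Type A and type B proteins resemble the bacterial DnaJ more closely than type C, whose members share little but the J domain. Apart from Dnajb5 and Dnajc5, Dnajb2, a neuronal J-domain protein, was highest in type B at 0.30 ± 0.21 (SE), with 805 and 918 on the deprived arrays and 717 and 663 on the non-deprived arrays. Dnajb6, which suppresses aggregation of polyglutamine proteins, and Dnajc8, which is found with splicing factors, had the brightest probe sets of types B and C and gave 0.17 ± 0.17 and 0.20 ± 0.17. Dnaja2 and Dnaja3, the second cytosolic type A protein and the mitochondrial one, gave 0.06 each. Dnajb8 was too dim to test.

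Both genes of the mitochondrial chaperonin were above 0. Hspd1 (Hsp60) had 3484 and 4037 on deprived arrays 1 and 2, against 2716 and 3080 on the non-deprived arrays. Its groups did not overlap, and the log2 fold change of 0.37 ± 0.17 (SE) had an unadjusted p of 0.053 and an adjusted p of 0.91 in limma. A further, dimmer probe set of Hspd1 went the other way, at -0.94 ± 0.46, with 96.9 and 381 on the deprived arrays and 358 and 548 on the non-deprived arrays, and the mean of both probe sets gave -0.28 ± 0.28. Hspe1 (Hsp10), which shares the promoter region shown above, had 691 and 1049 on the deprived arrays and 645 and 885 on the non-deprived arrays. Its groups overlapped and it gave 0.16 ± 0.25.

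The 8 subunit genes of TRiC, the chaperonin that folds actin and tubulin, had a median of 0.002, with 5 above 0 and 3 below. Cct4 and Cct5 gave 0.001 and 0.003, Cct2 0.10 ± 0.33, and Cct7, the brightest, 0.15 ± 0.17 (SE). The lowest was Cct3 at -0.52 ± 0.25 (adjusted p = 0.93 in limma), with 408 and 580 on the deprived arrays and 654 and 797 on the non-deprived arrays, but its other 2 probe sets gave 0.20 ± 0.26 and 0.56 ± 0.27. Cct6b, a testis form of the sixth subunit, was highest at 0.37 ± 0.41. The further probe set of Cct5 was dim and gave -0.65 ± 0.52. Tcp1, the first subunit, which the symbol rule leaves out, gave -0.08 ± 0.36.

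Of the 4 genes grouped as small heat shock genes by symbol alone (Hspb and a number), 2 could be tested. Hspb1 (Hsp25) was too dim to test, with signals from 21.8 to 57.0, and so was Hspb11. Hspb8, which works together with Bag3, gave 0.20 ± 0.24 (SE), and Hspb2 0.28 ± 0.25. Hspb2 had 984 on deprived array 1 and between 596 and 688 on the other arrays, and without that array its value was -0.01. Hspbp1, an Hsp70 exchange factor whose symbol matches the rule although it is no small heat shock protein, gave 0.16 ± 0.18.

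The 13 tested genes with a 2-unit heat shock element in a promoter window had a median log2 fold change of 0.003, with 7 above 0 and 6 below, and ranged from -0.50 for Dnajb4 to 0.37 for Hspd1. The 4 with a 3-unit element were Hspd1, Hspe1, Dnajb6 and Hsph1, with 3 above 0 and 1 below. Bag3 and Hspb1 also hold the 2-unit element and were too dim to test. No group of chaperone genes marked by these letters stood on 1 side of 0, except the 3 genes with the endoplasmic reticulum element, none of which passed the threshold.

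Where a gene had a further tested probe set, it often differed from the brightest one. Over 12 genes there were 19 further probe sets, of which 7 had the same sign as the brightest and 12 the opposite sign. For 8 genes a further probe set was at least 0.5 away on the log2 scale, as given above for Bag2, Bag6, Cct3, Cct5, Dnajc3, Hspa4 and Hspd1, and for Dnajb9, whose dimmer probe set gave -0.68 ± 0.40. The dimmest tested probe sets of Hspa4 and Dnajc3 were below the filter in their lower group, so their values rest on the other group being bright enough. The Bag6 probe sets were alike in sign. Where probe sets lie along these transcripts was not analysed here.

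**Figure D4:**
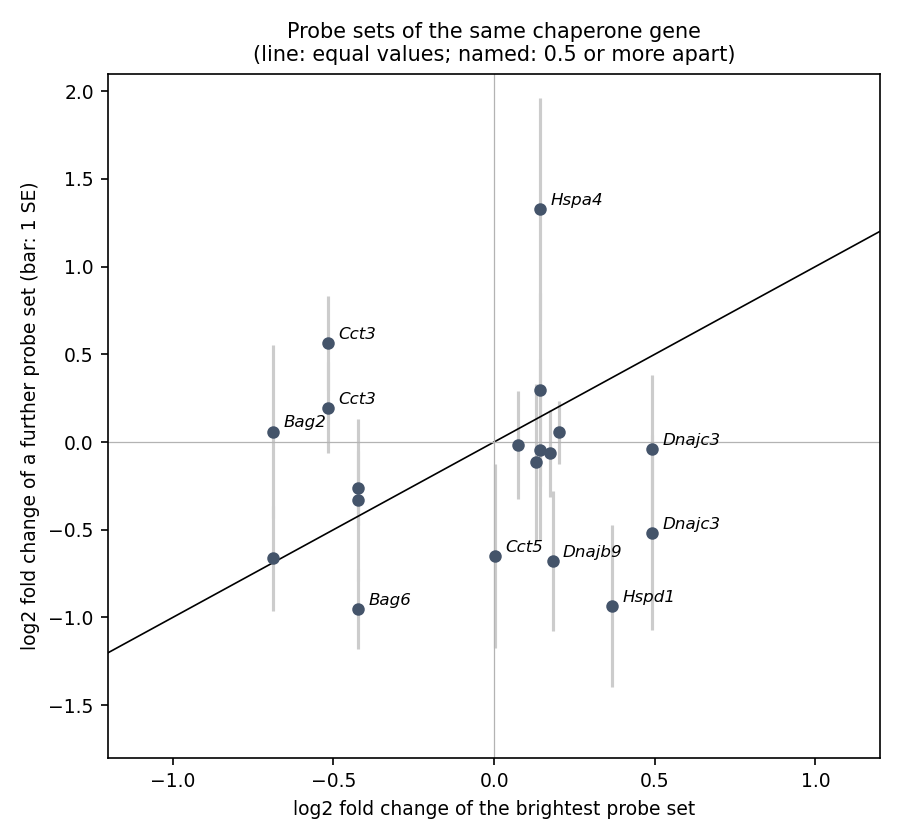
Log2 fold change (deprived minus non-deprived) of each of the 19 further tested probe sets (y axis, bars 1 standard error) against that of the brightest probe set of the same gene (x axis), for 12 chaperone genes. The line marks equal values, and points named by gene are 0.5 or more from the brightest value. Hspd1 and Cct3 have further probe sets on the other side of 0, while those of Bag6 stay below 0. The dimmest tested probe sets of Hspa4 and Dnajc3 were below the filter in their lower group.

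The rest of the folding pathway was read from a list of 59 further genes, of which 46 were on the array and 40 bright enough to test. At an adjusted p under 0.05 in limma 0 passed, and at an unadjusted p under 0.05 there were 2 lower and 0 higher, beside 3.19% lower and 1.73% higher of all tested genes. The median was -0.03, with 21 genes below 0 and 19 above. Pdia6, a disulfide isomerase of the endoplasmic reticulum, had 206 and 439 on the deprived arrays and 575 and 932 on the non-deprived arrays, a log2 fold change of -1.12 ± 0.34 (SE, adjusted p = 0.51). Without deprived array 2 it was -1.58 with an adjusted p of 0.016. St13 (Hip), which keeps Hsp70 bound to its client, had 229 and 244 against 435 and 421, with little spread in either group, and gave -0.72 ± 0.31 (adjusted p = 0.89). Of the 11 tested partners of Hsp90, 8 were above 0, with a median of 0.10. Of the 13 tested folding and stress response genes of the endoplasmic reticulum, 9 were below 0, with a median of -0.14, and so were both tested partners of Hsp70. The 6 mitochondrial genes were evenly split, with a median of 0.019, and the 5 partners of TRiC had a median of -0.016. Stip1 (Hop), which links Hsp70 to Hsp90, was the highest of the 40 at 0.33 ± 0.24. Cryab, the small heat shock protein of glia and muscle, gave 0.08 ± 0.31. Hsf2 was too dim to test, with signals from 52.3 to 94.3, and no probe set carried the name of Hsf1, Hsp90ab1 or Dnajc6 alone.

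Some measures of the arrays moved with the groups. For actin, the signal of the 5′ probe set divided by that of the 3′ one, which reads how complete the RNA is, was 0.544 and 0.463 on the deprived arrays and 0.638 and 0.632 on the non-deprived arrays, and for Gapdh it was 0.745 and 0.689 against 0.875 and 1.07, so the arrays on which Dnajb5, Dnajc5, Bag2, Hspa4l and Bag6 were lower had the lower ratios. All 5 general neuronal markers were below 0, with summed signals of 19939 and 23876 on the deprived arrays and 24683 and 28648 on the non-deprived arrays. Most of each sum was Snap25, with 15284 and 18092 against 18728 and 20865. The groups overlapped for Nefm and Stmn2. Among 3 markers of cortical excitatory neurons 1 was below 0 and 2 above, with a median of 0.020. Of the oligodendrocyte markers 3 of 4 tested were above 0, and of those for the neighbouring striatum and thalamus 5 of 5, with a median of 0.14. The 9 marker lists held 33 tested genes, of which 0 passed at an adjusted p under 0.05 in limma and 3 had an unadjusted p under 0.05 (Map2, Nefl and Mobp), beside 278 of all 5649 tested genes. Map2, a protein of neuronal microtubules, gave -1.79 with an adjusted p of 0.20 in limma, and 0.037 with the replicate block. Its deprived mean of 102.3 was below the filter on dim probe sets. Map2 therefore entered the test through its non-deprived arrays (mean 509.1). Of the choroid plexus markers, Ttr and Kl were below the filter, with Ttr at 258 on deprived array 1 and between 39.8 and 67.0 on the others. The part of RNA integrity and cell makeup in the values of the chaperone genes was not tested, and in pooled tissue fewer cells of a type and less RNA per cell cannot be told apart. As a reference for size, Fos, the activity-induced transcription factor, gave -1.38 ± 0.18 (SE, adjusted p = 0.020) in the same fit.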

How the data were processed

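The deposited values are linear intensities. The authors computed them in MAS5, per the submitters' processing notes. No source used here gives the MAS5 version, scaling target or detection calls. The 4 arrays had the same 2% trimmed mean (about 500.3), were brought exactly to it, 60.6 (the 20th percentile of mean signals) was added, and log2 was taken. The 66 controls were dropped, and so was any probe set whose mean signal lay under 142.9 (the 40th percentile), leaving 7458. The groups were compared in limma 3.58.1 under R 4.3.3 (lmFit, then eBayes with trend). Its p-values are two-sided and were adjusted over all 7458 by the Benjamini-Hochberg method, with a threshold of 0.05. It had 2 residual degrees of freedom, 11.6 with the prior. An exact permutation test of 2 arrays against 2 cannot give a two-sided p under 0.333. The number of arrays limits the precision.

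Gene symbols came from the platform annotation, brought up to date through a RefSeq table of GRCm38.p6, which matched 10839 of 10855 probe sets that name 1 gene. No coordinates of probes were used. The design text speaks of added comparisons across animals, so arrays with the same number were read as coming from the same animals, and their deviations from the group means correlated over probe sets (r = 0.27), which does not tell shared animals from shared handling. The fit without the block was the main one and the block an alternative. The fit was tested on simulated data.

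The members and lists were chosen with earlier results of these data known. The genes named were a fixed set of 26, in each family the brightest, lowest and highest tested gene, genes with an unadjusted p under 0.05, genes at least 1.5-fold apart in all 4 pairs, and genes whose further probe sets differed by 0.5 or more on log2. Others are named as examples chosen after their values were seen. Alternatives changed the offset, filter, scaling, variance trend, block and probe set choice, and left out each array.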

Additional observations from a re-analysis of the deposited data

How the results depend on the processing

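The count of 0 chaperone genes past the threshold stayed at 0 with the replicate block (Dnajb5 came nearest, adjusted p = 0.068) and in the other alternatives except those that left out an array, where it ran from 0 to 3. The passing genes were Bag2, Dnajb5 and Dnajc5 without deprived array 1, and Dnajb5 without non-deprived array 1. In both of these fits, and without deprived array 2, calls also rose over all tested probe sets. They fell without non-deprived array 2. Whether the added calls were particular to the chaperone genes was not tested. For related folding genes it ran from 0 to 2, with P4hb and Pdia6 passing without deprived array 2. In limma the block brought a further Bag6 probe set (adjusted p = 0.047) and the marker Map2 (0.037) past the threshold. Map2 was below the filter on the deprived arrays. The block changed no call of a chaperone gene at its brightest probe set, while calls over all tested probe sets rose from 8 to 40. The fits that left out an array assume a lone array varies like the other group. The 1 gene at 1.5-fold in all pairs became 2 with a common median or in the same-numbered pairs alone (the replicate pairing), 5 and 0 at a fold of 1.2 and 2, and 2 to 5 with an array left out, where fewer pairs had to agree. The count of 5 at an unadjusted p under 0.05 became 7 with the replicate block, 2 without the variance trend, and ran from 2 to 6 with an array left out. Hspd1 was the 1 higher gene without a filter, after quantile normalization and with the replicate block, and with an array left out there were 0 to 2. These counts at an unadjusted p were added after seeing the data. The shares of all tested genes at an unadjusted p were not computed for these alternatives, so the counts have no background beside them.

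The median over the chaperone genes, 0.05, was 0.077 with a common median and ran from -0.033 to 0.069 with an array left out, so its sign is not settled. With an array left out the family medians ran from -0.12 to 0.13 (Hsp70), -0.13 to 0.16 (Hsp90), -0.15 to 0.030 (type A), -0.10 to 0.13 (type B), -0.15 to -0.019 (type C), 0.13 to 0.35 (small heat shock), 0.07 to 0.46 (mitochondrial chaperonin), -0.087 to 0.14 (TRiC) and -0.45 to -0.36 (BAG). With all probe sets averaged, type B gave -0.12 and the mitochondrial chaperonin -0.061, Hspd1 turning to -0.28. Without a filter the BAG median was -0.13, as the dim Bag3 enters. The cause was not tested for the others. Of the values of named genes under alternatives, 482 kept their side of the threshold and direction (a value within 1 SE of 0 was taken to have none), 5 newly passed and 1 reversed. Without detection calls, the dimmest members could not be told from background.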
